A study of Mus musculus with 2 samples.

Results

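Erythroid cells, the red blood cell lineage, were the cell barcodes in which the adult globin genes Hba-a1, Hba-a2, Hbb-bs and Hbb-bt together took at least 20% of the UMIs (unique molecular identifiers, each counting 1 captured RNA molecule). Barcodes first had to show 200 or more detected genes, 500 or more UMIs and a mitochondrial share of 20% or less. There were 245 such cells among 20390, of which 132 of 12076 were in the LPS library and 113 of 8314 in the LPS + MCZ library. Since globin counts chose the cells, globin levels are given below as a description.

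The study profiled single cells of digested lung (left lower lobe) from male mice of the outbred ICR strain, aged 6 to 8 weeks. Both groups received LPS, the lipopolysaccharide endotoxin of Gram-negative bacteria. The LPS + MCZ group also received miconazole (MCZ), an azole antifungal, by intraperitoneal injection, at 0.2 mg/kg by the sample label and 1 mg/kg by the protocol text. Each group was 1 library made from the pooled lungs of all its mice, so there was no untreated group and no replicate. Differences below compare these 2 libraries, with 95% exact intervals that cover counting error only, and have no replicate check. The number of mice, the LPS dose and the timing are not given in the sources used here.

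Red cells develop in bone marrow from nucleated erythroblasts that fill with hemoglobin, made of 2 alpha and 2 beta globin chains, each holding an iron-containing heme. The nucleus is then expelled, and the reticulocyte that enters the blood still carries RNA, which it loses with its mitochondria and ribosomes as it matures. In lung the cells come with the blood held in the vessels and with any bleeding into the tissue. The protocol treated the cell pellet with a lysis reagent that the labels do not name, and whether the lungs were perfused is not given in the sources used here.

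Transcription in this lineage depends on GATA1, which binds the bases GATA, and on KLF1, which binds CACCC boxes. Hba-a1 and Hbb-bs are shown because they gave most globin UMIs, and Alas2 because it was the heme gene with the most UMIs. Alas2 makes the first and rate-limiting enzyme of erythroid heme synthesis. The sequences are from RefSeq (GRCm38.p6). Each runs 5′ to 3′ from 250 bases before the RefSeq start to the last base before any annotated exon, and capitals mark AGATAA or TGATAA on either strand. Alas2 is on the plus strand at chrX:150547167-150547374, Hba-a1 on the plus strand at chr11:32283422-32283510 and Hbb-bs on the minus strand at chr7:103828097-103828178.
Alas2: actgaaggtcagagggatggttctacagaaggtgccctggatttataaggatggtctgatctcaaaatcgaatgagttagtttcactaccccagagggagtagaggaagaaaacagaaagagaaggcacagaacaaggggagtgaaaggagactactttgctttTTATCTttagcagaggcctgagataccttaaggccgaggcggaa
Hba-a1: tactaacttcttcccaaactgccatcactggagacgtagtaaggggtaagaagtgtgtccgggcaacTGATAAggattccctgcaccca
Hbb-bs: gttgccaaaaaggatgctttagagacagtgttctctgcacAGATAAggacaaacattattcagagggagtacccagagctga
The match in Alas2 began 86 bases before the start, that in Hba-a1 183 and that in Hbb-bs 210 bases before it. Over the same 250 bases, 16.6% of 32851 promoters held such a match and 15.9% held CCACNCCC on either strand. Alas2 and Hbb-bs held both, as did 1.69% of all promoters, with the CCACNCCC match 42 and 93 bases before the start. Of 8 genes looked up, 6 had a promoter in the table. The windows of Bpgm and Hbb-bt held neither motif, which says only that these letters are not in these bases.

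The LPS library held 12577 barcodes and 90597705 UMIs and the LPS + MCZ library 8500 barcodes and 68467793 UMIs. Most kept cells of each library were neutrophils by S100a8 and S100a9, calcium-binding proteins that abound in these granulocytes (non-erythroid cells with at least 5% of UMIs from the pair). They numbered 6361, or 52.7%, and 4429, or 53.3%. The libraries shared 243 barcode sequences, of which 1 belonged to an LPS erythroid cell and 0 to an LPS + MCZ one. No doublet caller was run here.

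Erythroid cells made up 1.09% of kept LPS cells (Clopper-Pearson interval 0.915% to 1.29%) and 1.36% of kept LPS + MCZ cells (1.12% to 1.63%). The ratio of the shares was 1.24 with an interval of 0.959 to 1.61, so the difference was within counting error. The direction turned when barcodes under the cell filter were counted too. Globin-high barcodes then numbered 598 of 12577 in LPS (4.75%, 4.39% to 5.14%) and 249 of 8500 in LPS + MCZ (2.93%, 2.58% to 3.31%), a ratio of 0.616 (0.529 to 0.715). The part of the lysis step and of cell calling in these shares was not tested.

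The gene limit thus removed 466 globin-high LPS barcodes and 136 globin-high LPS + MCZ barcodes, 77.9% and 54.6% of all those found. In LPS 96.9% of all barcodes with under 200 genes were globin-high, and in LPS + MCZ 86.1%. The removed barcodes were well filled but of few genes. Their medians were 3055.5 UMIs, 113 genes and 94.0% globin in LPS, and 2744.5 UMIs, 144.5 genes and 92.0% globin in LPS + MCZ. They held 68.0% of all globin UMIs of the LPS library and 41.7% of those of the LPS + MCZ library, against 26.8% and 49.5% in the erythroid cells described here. All other barcodes together held 5.17% and 8.83%.

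**Figure D1:**
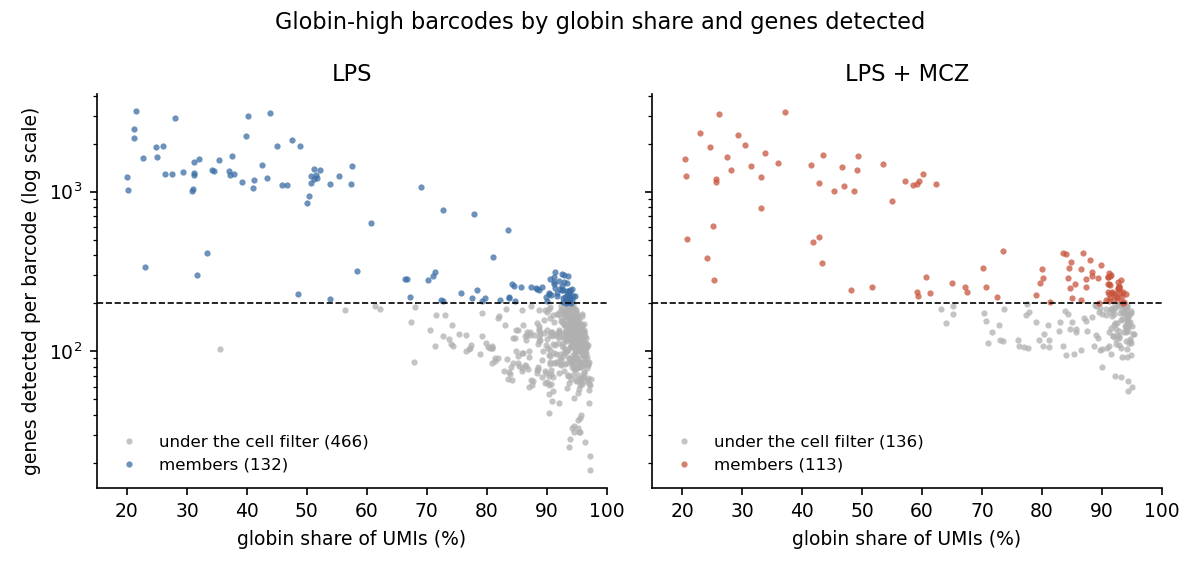
Genes detected per barcode (log scale) against the globin share of UMIs (%), with 1 point for each barcode of at least 20% globin. Coloured points are the 132 and 113 erythroid cells, grey points the 466 and 136 barcodes under the cell filter, and the dashed line is the limit of 200 genes. The points form a sparse upper band, mostly of low globin share, and a dense cluster at 90% globin and over that the gene limit cuts through.

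The kept erythroid cells ranged widely in composition. LPS cells had 558 to 22218 UMIs (median 7002) and 201 to 3190 genes (median 299.5), and LPS + MCZ cells 558 to 20065 UMIs (median 6091) and 200 to 3181 genes (median 290). Neutrophils had medians of 1370 and 1537 genes at a like number of UMIs (6218 and 6681). The globin share ran from 20.0% to 94.8% (median 71.8%) in LPS and from 20.5% to 94.0% (median 80%) in LPS + MCZ. At the threshold the cells were few: 4 LPS and 2 LPS + MCZ cells had 18% to 20% globin, the highest at 19.5% and 19.8%, and 5 and 3 had 20% to 22%.

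Globin RNA took 61.2% of the UMIs of the LPS erythroid cells and 65.1% of those of the LPS + MCZ cells, against 0.122% and 0.121% in all other kept cells. Hbb-bs gave 262791 and 219406 UMIs and Hba-a1 234648 and 189488. Hbb-bt, the second adult beta globin gene, gave 53768 and 44209 UMIs, and Hba-a2 gave 7837 and 4056. Hba-a1 and Hba-a2 are near-identical copies, so the split of reads between them is uncertain. Alpha chains made up 43.4% and 42.3% of globin UMIs, and Hbb-bt 17.0% and 16.8% of beta globin UMIs. Single cells departed from these averages: the Hbb-bt part of beta globin ran from 1.47% to 25.9% in LPS cells and from 0.813% to 35.5% in LPS + MCZ cells, and lay under 10% in 23 and 18 cells. Hbq1b, a theta globin gene, gave 18 and 15 UMIs, against 0 in neutrophils of either library. The embryonic genes Hbb-y, Hbb-bh1 and Hba-x gave 0 UMIs in the erythroid cells, which allows up to 3 UMIs of each per library.

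The 2 marker genes of the label that the rule did not use, Alas2 (chrX:150547375-150570638, plus strand, GRCm38) and Bpgm (chr6:34476207-34505613, plus strand), were both present. Alas2 gave 912 UMIs in the LPS erythroid cells and 731 in the LPS + MCZ cells, from 124 and 97 cells. All 6361 and 4429 neutrophils together gave 112 and 67. Bpgm, which makes the 2,3-bisphosphoglycerate that lowers the oxygen affinity of hemoglobin, gave 548 and 441 UMIs, against 65 and 85 in neutrophils. With every cell thinned to 1000 UMIs (6 cells left out in each library), Alas2 was detected in 64.3% of LPS cells (55.3% to 72.6%) and 62.6% of LPS + MCZ cells (52.7% to 71.8%). In thinned neutrophils, where the gene should be absent, the shares were 0.38% and 0.18%. Without thinning, the shares of the same erythroid cells were 96.0% and 89.7%.

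Neutrophil RNA was also present in nearly every erythroid cell: only 1 LPS cell and 0 LPS + MCZ cells lacked S100a8 and S100a9. To read other genes apart from it, counts were scaled per 1000000 UMIs other than those of the 4 globin genes (non-globin CPM) and set against neutrophils. Of 25 neutrophil markers, 23 in LPS and 22 in LPS + MCZ had at least 50 UMIs in the erythroid cells. Their level was a median of 0.725 of that in neutrophils in LPS and 0.793 in LPS + MCZ. S100a8 stood at 0.532 and 0.590, S100a9 at 0.564 and 0.647, and Il1b, an inflammatory cytokine, at 0.961 and 0.950. The lowest was Ngp, a granule protein of immature neutrophils, at 0.182 and 0.194, and the highest Slpi, a protease inhibitor, at 1.14 and 1.26. Against all other kept cells the medians were 1.15 and 1.18. Whether this RNA was free in the suspension or came from cells sharing a droplet was not tested.

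Relative to globin, S100a8 of neutrophils fell off with the globin share, while Alas2 moved far less. Per 10000 globin UMIs, LPS cells of 20% to 50%, 50% to 80%, 80% to 90% and at least 90% globin held 18.9 (16.6 to 21.4), 17.3, 18.1 and 14.5 (13.1 to 15.9) Alas2 UMIs. The LPS + MCZ cells held 20.1, 15.3, 16.9 and 14.1. The barcodes under the gene limit held 14.3 and 15.5, and the neutrophils themselves 18.9 (15.5 to 22.7) and 14 (10.8 to 17.8). For Alas2 the ratio to globin UMIs in neutrophils was thus about that in erythroid cells, but other erythroid genes differed. Bpgm of neutrophils stood at 10.9 and 17.7 per 10000 globin UMIs, against 9.80 and 9.65 in all erythroid cells. The heme gene Fech stood at 10.9 and 14.8 against 5.60 and 4.48. The membrane gene Slc4a1, on 4 and 18 neutrophil UMIs, stood at 0.67 and 3.76 against 2.63 and 1.44, so its direction differed between the libraries. The source of these UMIs in neutrophils was not tested. Over the globin ranges, S100a8 went from 783 to 364, 37.3 and 11.5 UMIs per 10000 globin UMIs in LPS. In LPS + MCZ it went from 1011 to 124, 34.1 and 7.96. Much of this fall is built into the ranges, which divide the cells by their globin share. In non-globin CPM the fall was smaller and uneven, with S100a8 at 40977, 49412, 22794 and 15095 in LPS. The LPS + MCZ values were 53217, 19183, 21834 and 9558.

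Bpgm had its highest value at 90% globin and over, where Alas2 was lowest. In LPS it stood at 8.5 (6.99 to 10.2), 9.75, 9.59 and 10.5 (9.30 to 11.7) UMIs per 10000 globin UMIs, with overlapping intervals. In LPS + MCZ it stood at 8.44 (6.67 to 10.53), 6.97 (5.00 to 9.45), 7.90 (6.09 to 10.07) and 11.5 (10.13 to 12.99). There the interval at 90% and over overlapped only that at 20% to 50%. Under the gene limit it stood lower, at 4.95 (4.59 to 5.33) and 3.95 (3.35 to 4.63). Slc4a1, the band 3 anion exchanger of the red cell membrane, (chr11:102348824-102366203, minus strand, GRCm38) did not follow either gene. It stood at 4.67, 2.44, 5.67 and 1.25 in LPS and at 3.79, 1.19, 1.34 and 0.58 in LPS + MCZ. Under the gene limit only 24 and 5 UMIs were found, 0.17 (0.11 to 0.25) and 0.13 (0.04 to 0.30) per 10000 globin UMIs, below every range of the kept cells.

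**Figure D2:**
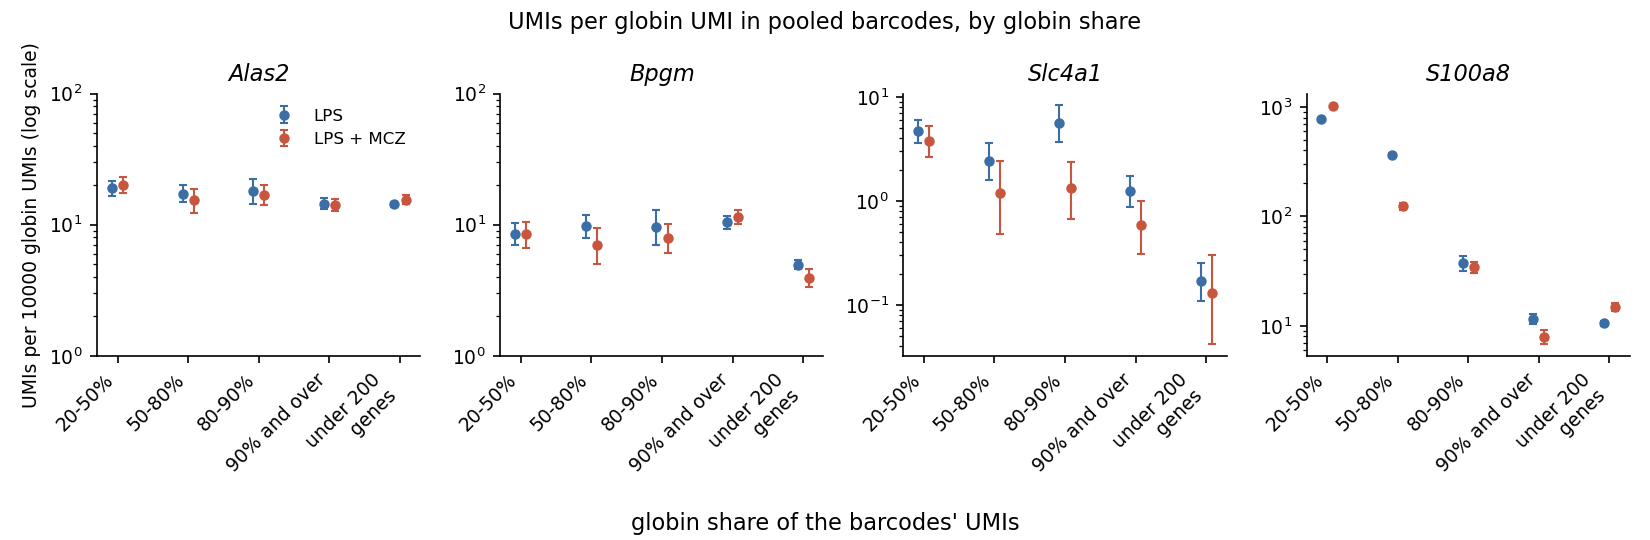
UMIs of Alas2, Bpgm, Slc4a1 and S100a8 per 10000 globin UMIs (log scales that differ between panels) in pooled barcodes of each globin range and in those under 200 genes, with 95% exact intervals that cover counting error only. Alas2 stays between 14.1 and 20.1 throughout, Bpgm is lower under the gene limit, Slc4a1 is at 0.17 and 0.13 there, and S100a8 drops from 783 and 1011 to 11.5 and 7.96 across the kept cells. Much of the S100a8 drop is built into ranges that are set by the globin share.

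Beside globin, cells of low and high globin share held different RNA, as a split at 80% globin, added after the data had been seen, shows. The 75 LPS and 56 LPS + MCZ cells under 80% globin had medians of 1214 and 1107.5 genes, and neutrophil markers at 0.763 and 0.830 of the neutrophil level. The 57 and 57 cells at 80% and over had medians of 238 and 252 genes and neutrophil markers at 0.229 and 0.298. These medians rest on different numbers of markers, 24 and 25 in the first group but only 10 and 11 in the second. Genes of the 7 erythroid lists gave 6.48% and 5.78% of non-globin UMIs in the first group and 19.4% and 16.7% in the second. Malat1, a nuclear RNA, gave 1.29% and 1.52% in the first and 0.464% and 0.279% in the second. The first group held 325035 of the 353935 non-globin UMIs in LPS and 213657 of 245150 in LPS + MCZ. Values per non-globin UMI over all erythroid cells therefore mostly describe the cells under 80% globin.

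Markers of other blood and lung cells were also found, those of lymphocytes nearly all in the cells under 80% globin. B cell markers gave 284 and 155 UMIs over all erythroid cells, of which 279 and 155 were in those cells. Natural killer cell markers gave 309 UMIs in LPS, with 304 in those cells, and 9 in LPS + MCZ. A single LPS cell held 101 of the 189 UMIs of Gzma, a cytotoxic granule protease. T cell markers gave 110 and 42 UMIs. Alveolar macrophage markers gave 146 and 262 UMIs, classical monocyte markers 174 and 120 and dendritic cell markers 154 and 80. Epithelial markers gave 55 and 207 UMIs, spread over both groups, with 27 and 110 under 80% globin and 28 and 97 at 80% and over. Platelet markers gave 5 and 2 UMIs, with Pf4 at 2 and 0 and Ppbp, Gp9 and Gp1ba at 0. The part of these cells' RNA in the results below was not tested.

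Against neutrophils, the erythroid cells were higher in genes of heme synthesis, of the red cell membrane and of reticulocyte maturation. This is a description of cells chosen by globin, not a test. A gene was counted as higher at 4-fold or more in both libraries with a lower bound above 0 on the log2 scale. By this rule 81 of 1596 genes with at least 50 UMIs in the erythroid cells passed, 5.08%, and 159 of 3177 with at least 20 UMIs, 5%. The 7 erythroid lists hold 144 genes, of which 88 had at least 20 UMIs in the erythroid cells and are called measured. Of the 88 measured genes, 46 passed. Genes low in the erythroid cells are left out of these counts, so they do not show how much of a list was expressed. The 88 genes had a median log2 ratio of 2.61 in LPS and 2.48 in LPS + MCZ, against 0.19 and 0.04 over all 3177 genes. Against all other kept cells in place of neutrophils, 45 of the 1596 genes passed, 2.82%.

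Heme synthesis and transport (20 genes in the list) had 9 of 12 measured genes past the rule, with medians of 5.23 and 4.84. Alas2 stood at log2 10.00 (9.71 to 10.29) over neutrophils in LPS and 10.54 (10.18 to 10.92) in LPS + MCZ. Carried-over neutrophil RNA at the level of the markers would account for only 0.647 UMIs of its 912 in LPS. In LPS + MCZ it would account for 0.390 UMIs of 731. Fech, which inserts iron in the last step, gave 313 and 205 UMIs and stood at 9.24 and 8.62. Slc25a37, the mitochondrial iron importer mitoferrin-1, stood at 5.04 and 5.15, and Slc25a39, a mitochondrial carrier, at 6.00 and 6.15. Alas1, the enzyme of other tissues for the step that Alas2 takes, stood at 0.09 and -0.57.

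Membrane and blood group genes (30 in the list) had 14 of 16 measured genes past the rule, with medians of 8.36 and 7.00. Of the 30, 4 gave 0 UMIs in LPS and 3 gave 0 in LPS + MCZ. Slc4a1 gave 147 and 66 UMIs, against 4 and 18 in all neutrophils, and stood at 12.17 (10.78 to 14.06) and 8.97 (8.20 to 9.81). Kel, the Kell blood group protein, gave 25 and 26 UMIs against 2 and 10, at 10.61 (8.61 to 13.74) and 8.47 (7.37 to 9.69). Epb41, protein 4.1 of the membrane skeleton, gave 246 and 190 UMIs and stood at 4.52 and 4.81. The genes that did not pass were Bsg, a widely expressed membrane protein, and Add1, an adducin, at -0.64 and -0.37.

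Maturation and clearance genes (37 in the list) had 14 of 27 measured genes past the rule, with medians of 2.59 and 2.40. Tent5c, a poly(A) polymerase, stood at 6.93 and 7.00, and Ube2o, a ubiquitin ligase that clears ribosomes in reticulocytes, at 6.43 and 6.09. Mkrn1, a ubiquitin ligase, gave 586 and 554 UMIs and stood at 4.61 and 4.63, and Bnip3l, the receptor that removes reticulocyte mitochondria, at 4.06 and 4.04. Survival and stress genes that neutrophils also express stood near 0, with Bcl2l1 at -0.13 and 0.41, Pim1 at -0.16 and -0.03 and Btg2 at -0.19 and -0.07.

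Red cell metabolism (19 genes in the list) had 3 of 14 measured genes past the rule, with medians of 0.05 and -0.34. These were Bpgm at 10.05 (9.67 to 10.44) and 9.47 (9.13 to 9.82), Car2, carbonic anhydrase 2, at 9.47 and 7.70, and Nt5c3, a pyrimidine nucleotidase, at 2.43 and 2.32. The shared enzymes of glycolysis stood near or below the neutrophil level, with Gapdh at -0.59 and -0.13 and Pkm at -0.20 and -0.38. Iron handling (11 genes in the list) had 3 of 6 measured genes past the rule. Slc48a1, a heme transporter, stood at 5.21 and 4.88 and Ncoa4, the ferritin autophagy receptor, at 3.23 and 3.24, while the ferritin subunit gene Fth1 stood at -0.25 and -0.02. Antioxidant genes (11 in the list) had 2 of 7. Prdx2, the peroxiredoxin of red cells, stood at 6.61 and 7.31 on 205 and 198 UMIs. Gpx1, glutathione peroxidase 1, stood at 2.50 and 1.5 and so did not pass the rule.

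Single genes that mark early and dividing erythroid stages gave few UMIs. Gata1 gave 2 UMIs in each library and Klf1 1 in each. Kit, the stem cell factor receptor, gave 4 and 0 UMIs, Top2a, a mitotic topoisomerase, 2 and 3, and Tfrc, the transferrin receptor that takes up iron, 17 and 6. Mki67, a proliferation marker, gave 25 and 20 UMIs and stood at 2.31 and 2.28 over neutrophils, but at 0.53 and 0.75 over all other kept cells. A list of 18 cell cycle genes gave 405 and 218 UMIs. These were 1144 and 889 non-globin CPM, beside 936 and 833 in neutrophils, and 1 of its 4 measured genes passed the rule. A list of 12 early progenitor genes gave 394 and 355 UMIs, with 1 measured gene, at -0.26 and -0.02 over neutrophils. Of 6 measured regulators (16 in the list) only Lmo2, at 2.35 and 2.77, passed the rule. At these counts most genes of early stages could not be compared between the libraries. Ahsp was not analysed here.

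**Figure D3:**
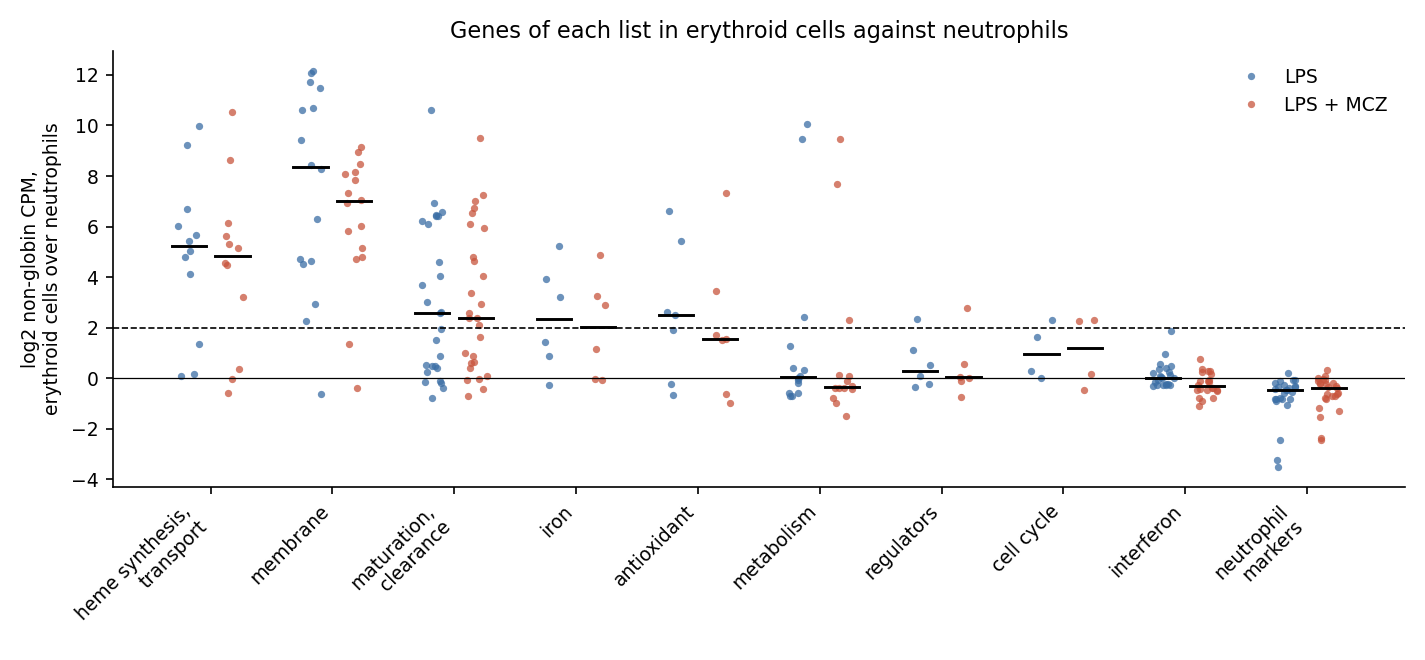
Log2 ratio of non-globin CPM in erythroid cells over neutrophils, with 1 point for each gene of a list with at least 20 UMIs (all 25 neutrophil markers are at or above this) and a bar at each list's median. The dashed line marks 4-fold. Heme and membrane genes reach 9 to 12. Metabolic genes apart from Bpgm, Car2 and Nt5c3, regulators apart from Lmo2, and interferon genes mostly lie near 0, and the neutrophil markers mostly below it.

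Outside the lists, the genes with the highest mean log2 ratio over neutrophils across the libraries included Gm10371, a predicted gene, at 10.94 and 11.14 on 47 and 33 UMIs. Prxl2a, a peroxiredoxin-like protein, stood at 9.35 and 8.54 and Cdr2 at 6.89 and 8.61. Tfdp2, a partner of E2F factors, stood at 7.11 and 6.70. Bola3 and Isca1, which assemble iron-sulfur clusters, stood at 5.00 and 5.43 and at 5.16 and 5.15. March2, a ubiquitin ligase, gave 214 and 176 UMIs in 87 and 78 cells, at 5.18 and 4.85, and Ptp4a3, Specc1 and Plaat3 stood between 3.86 and 5.26. Tmem256 and Metap2 stood at 4.14 and 4.32 and at 3.76 and 3.27. The remaining 3 of the 15 rested on single cells: Ebf1, a B cell factor, had 57 of 57 LPS + MCZ UMIs in 1 cell, Kcnq5 had 34 of 41 LPS UMIs in 1 cell, and Rrad 83 of 88. Rrad stood at 6.13 in LPS but at 0.97 on 2 UMIs in LPS + MCZ, and so did not pass the 4-fold rule.

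Between the libraries, most erythroid genes stood within 2-fold of each other. A gene was counted at 2-fold or more with an interval that excluded 0, and 94 of 1596 genes were higher in LPS + MCZ (5.89%) and 130 lower (8.15%). These counts depended on the processing, with 36 and 42 at a globin share of 50%, 6 and 10 at 80%, and 290 and 359 with neutrophil RNA subtracted. With at least 20 UMIs the shares were 6.48% and 9.32% of 3177. Of the 88 genes of the erythroid lists, 5 were higher and 5 lower, which is near those shares. Their median log2 ratio was 0.10, with 50 genes above 0 and 38 below, against -0.08 over all 3177 genes. Counted per globin UMI in place of non-globin UMIs, the list median was -0.14, so its direction rests on the scaling.

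The main heme and metabolism genes differed little. Alas2 stood at 2577 non-globin CPM in LPS and 2982 in LPS + MCZ, a log2 ratio of 0.21 (0.07 to 0.35), and at -0.03 (-0.17 to 0.11) per globin UMI. Bpgm stood at 1548 and 1799, a ratio of 0.22 (0.03 to 0.40), and at -0.02 (-0.21 to 0.16) per globin UMI. Fech at -0.08 (-0.34 to 0.18) was within counting error per non-globin UMI, but lower in LPS + MCZ per globin UMI, at -0.32 (-0.58 to -0.06), and with no cell filter, at -0.58 (-0.77 to -0.40). Slc25a37 at 0.58 (0.32 to 0.84), Bnip3l at 0.52 (0.29 to 0.75) and Mkrn1 at 0.45 (0.28 to 0.62) were higher in LPS + MCZ, below 2-fold. With the barcodes under the cell filter counted, Alas2 at -0.48 (-0.57 to -0.38) and Bpgm at -0.41 (-0.55 to -0.26) were instead lower in LPS + MCZ. Slc25a37 at -0.12, Bnip3l at -0.12 and Mkrn1 at -0.09 were then within counting error. In cells of at least 80% globin Slc25a37 at 0.11 (-0.25 to 0.48), Bnip3l at -0.06 (-0.36 to 0.23) and Mkrn1 at 0.02 (-0.19 to 0.23) were too. Fech was lower there, at -0.48 (-0.82 to -0.14). At a globin share of 50% Slc25a37 at 0.66, Bnip3l at 0.61 and Mkrn1 at 0.65 were again higher. Among cells with at least 500 genes Bpgm was lower at -0.47 (-0.83 to -0.13), while Alas2 at -0.09 (-0.33 to 0.14) was within counting error.

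Some membrane, metabolism and maturation genes were lower in LPS + MCZ. Slc4a1 stood at 415 and 269 non-globin CPM, a log2 ratio of -0.63 (-1.07 to -0.20), and Car2 at 528 and 286, a ratio of -0.89 (-1.31 to -0.48). Both kept their direction per globin UMI and without the cell richest in the gene, Slc4a1 at -0.87 and -0.98 and Car2 at -1.13 and -1.08, but among cells with at least 500 genes Slc4a1 stood at -0.01. The interval of Slc4a1 also included 0 without the 10% of cells with the most non-globin UMIs (-0.33, -0.82 to 0.13), in cells of low S100a8 and S100a9 (-0.47, -0.99 to 0.03) and with neutrophil RNA subtracted (-0.31, -0.75 to 0.12). Car2 stood at -0.45 with a globin share of 10%, and at -0.58 (-1.29 to 0.09) with at least 500 genes. Both genes were further below 0 at higher globin shares. At 50% Slc4a1 stood at -0.88 and Car2 at -1.12. At 80%, a setting chosen after seeing the data, they stood at -1.47 (-2.22 to -0.77) and -1.31 (-1.88 to -0.76). Trim10 at -1.42 (-2.86 to -0.18) and Xpo7, a nuclear exporter, at -2.13 (-2.94 to -1.41) passed 2-fold. Trim10 rested on few UMIs, with a wide interval, and a single cell gave 6 of them in LPS and 3 in LPS + MCZ. Xpo7 was under 2-fold, at -0.95, with a globin share of 10%. It stood at -1.01 without the 10% of cells with the most non-globin UMIs and at -1.08 in cells of low S100a8 and S100a9.

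A large share of the UMIs of 6 membrane and maturation genes came from 1 cell in each library. The group of Slc4a1, Rhag, Kel, Xpo7, Tmcc2 and Trim10, chosen after their values were seen, gave 444 UMIs in LPS and 176 in LPS + MCZ. Kel was not lower in LPS + MCZ, at 0.59 (-0.26 to 1.44). A single LPS cell, of 24.8% globin and 1919 genes, held 142 of them (32.0%), with 57 of the 114 Xpo7 UMIs and 20 of the 147 Slc4a1 UMIs. A single LPS + MCZ cell, of 42.8% globin and 1137 genes, held 77 (43.8%), with 22 of 66 Slc4a1 UMIs. No UMI of the 6 genes was found in 80 LPS and 70 LPS + MCZ cells. With 1 pooled library per group, the treatment and the chance capture of such cells cannot be told apart.

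Other genes of the erythroid lists passed 2-fold, some of them on low counts or with a large part of their UMIs in 1 cell. Runx1 at -1.25 (34 of 110 LPS UMIs in 1 cell) and Tpi1, a glycolytic enzyme, at -2.79 on 20 and 2 UMIs were lower in LPS + MCZ. Foxo3 at 1.28, Ube2c at 1.25, Hk1 at 1.48, Sptb, the beta spectrin, at 1.11 and Ank1, the ankyrin that ties spectrin to band 3, at 1.85 were higher. A single LPS + MCZ cell held 14 of the 15 Ank1 UMIs there, 20 of 51 Ube2c UMIs also came from 1 cell, and without the richest cells Ube2c stood at 0.70 and Foxo3 at 0.97.

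**Figure D4:**
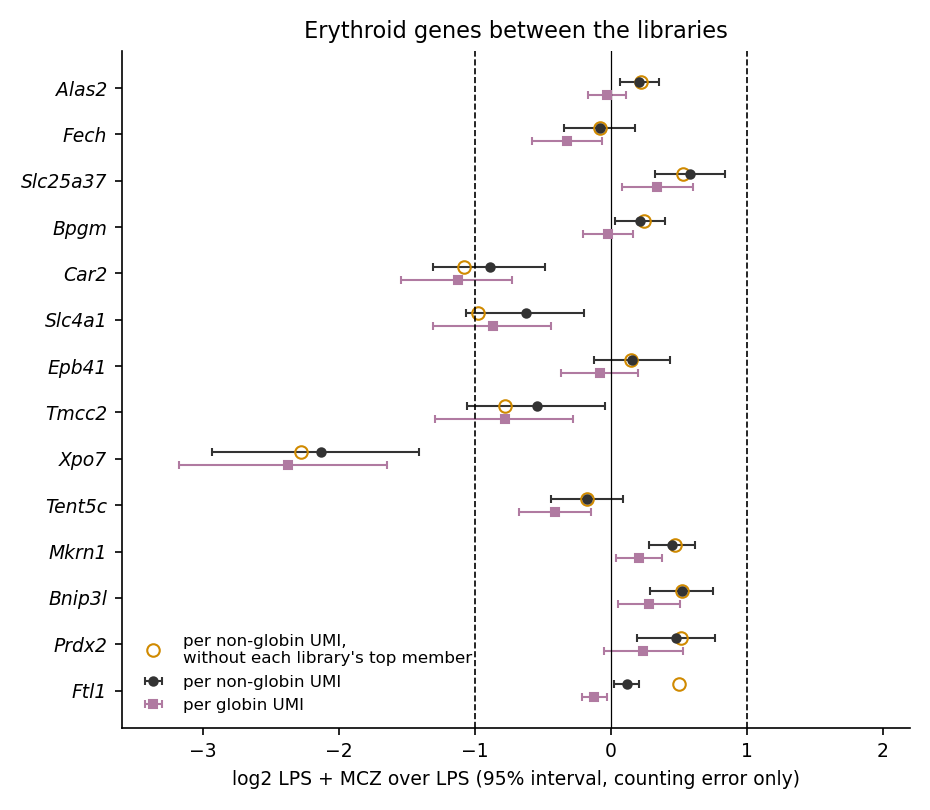
Log2 ratio of LPS + MCZ over LPS for 14 genes of the erythroid lists, per non-globin UMI (dark circles) and per globin UMI (squares), with 95% intervals for counting error only. Open circles leave out the cell with the most UMIs of the gene in each library, and dashed lines mark 2-fold. Alas2, Bpgm and Fech lie within 2-fold of equality, and Slc4a1, Car2 and Xpo7 lie below 0 on all 3 scales.

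The 10 lowest and 10 highest genes between the libraries, of those with at least 50 UMIs, included none of the erythroid lists, and many rested on single cells. Among the 10 lowest in LPS + MCZ, Hspa1a and Hspa1b, the inducible heat shock protein 70 genes, had 709 of 716 and 418 of 419 LPS UMIs in 1 cell. Without the richest cell, Hspa1a stood at -0.25 in place of -6.37. Prdx1 had 123 of 160 LPS UMIs in 1 cell, and Gzma, Ccl5, Irf8, AW112010 and Bcl2, genes that lymphocytes express, had 20 to 101 UMIs in the richest cell. BC018473 gave 297 and 7 UMIs, and 62948 and 156 in neutrophils. Among the 10 highest, Scgb1a1, the secretoglobin of airway club cells, gave 51 and 199 UMIs, a ratio of 2.49 beside 2.98 in neutrophils. Tsc22d3, Ezr, Ikbke, Grk5, Rdh12, Arf2, Rgs3 and Cdc42se2 stood at 1.76 to 2.16 in erythroid cells, and at 0.54 to 1.33 in neutrophils. Phip had 42 of 52 UMIs in 1 LPS + MCZ cell.

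Interferon-response genes were lower in the erythroid cells of LPS + MCZ, as in its neutrophils. All 22 measured genes were below 0, with 9 past the 2-fold rule (9.32% of all 3177 genes were lower by it) and a median of -0.75 (all genes -0.08), beside a median of -0.48 in neutrophils. Ifit3, an antiviral protein, gave 223 and 63 UMIs, at -1.29 (-1.72 to -0.88), beside -1.0 in neutrophils. Against neutrophils of the same library the list's median was 0.02 in LPS and -0.32 in LPS + MCZ, and 0 of 22 genes passed the 4-fold rule. The list thus stood near the neutrophil level, and the part of carried-over neutrophil RNA in its difference between the libraries was not tested. Ribosomal protein genes were below 0 in 78 of 79 cases, with a median of -0.87 beside -0.17 in neutrophils and -0.08 over all genes, and 20 were lower past 2-fold, against 9.32% of all genes. They gave 5.56% of non-globin UMIs in LPS cells under 80% globin and 2.82% in LPS + MCZ ones, but 6.18% and 5.20% in cells at 80% and over. Mitochondrially encoded genes had a median of -0.43, with 9 of 11 below 0. Gm42418, a gene that overlaps ribosomal RNA, was higher in LPS + MCZ, at 18543 and 36900 non-globin CPM, a log2 ratio of 0.99 (0.95 to 1.04). It was higher in the neutrophils of LPS + MCZ too, at 3334 and 7135. The ratio in erythroid cells was 0.37 with no cell filter and 0.48 with at least 500 genes. Without the 10% of cells with the most non-globin UMIs it was 1.34. The part of Gm42418, and of lymphocyte RNA in the LPS cells under 80% globin, in the ribosomal protein difference was not tested.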

How the data were processed

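Each library was made with the 10x Genomics 3′ version 3 chemistry and sequenced on an Illumina NovaSeq, per the labels' protocols. The authors deposited raw UMI counts per gene and barcode, written by Cell Ranger 7.0.0 per the file headers. The submitters' processing notes name bcl2fastq 2.20, Cell Ranger and the mm10 build. Whether intronic reads were counted is not given in the sources used here. Total counts were 90597705 and 68467793. No column of another series' samples was left out (0).

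From the counts, barcodes were filtered and erythroid cells selected as the report states, in Python 3.11.15 with numpy 2.4.6, scipy 1.17.1, pandas 2.3.3 and matplotlib 3.10.9. Features sharing a symbol were summed, and CPM excluded the 4 globin genes. Ratios of counts carry conditional exact binomial intervals, with a count of 0 set to a floor of 3 for bounds, and shares carry exact Clopper-Pearson ones, all at 95%. PCR duplicates are collapsed by UMIs, and the intervals cover counting error only. With 1 library per group no count model or p-value was used. The interval code recovered known folds on simulated data.

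Doublets were not called. An alternative left out the 10% of erythroid cells with the most non-globin UMIs in each library. The members and all gene lists were chosen with earlier results of these data known. Named genes were Alas2, Bpgm, Slc4a1, up to 6 per list with the highest mean ratio over neutrophils, fixed stage genes, the 15 highest genes outside the lists, and the 10 highest and 10 lowest of all genes between the libraries. A minimum of 50 UMIs held for the last 2 sets. Some further list genes (Alas1, Add1, Bsg, Bcl2l1, Pim1, Btg2, Gapdh, Pkm and Fth1 as members near the neutrophil level, and those past 2-fold between libraries) and ribosomal protein genes were named after their values were seen. Gene positions and names follow GENCODE M21 and the RefSeq tables. A few genes that these rules name are not reported here, and list counts include them.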

Additional observations from a re-analysis of the deposited data

Results flagged for a closer look

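Signal lay outside the cells of the main measurement. Barcodes with at least 20% globin but under 200 genes, which the cell filter removes, numbered 466 in the LPS library and 136 in the LPS + MCZ library. They were 96.9% and 86.1% of all barcodes under the gene limit, and held more globin UMIs than the kept erythroid cells in LPS (68.0% against 26.8% of the library's globin UMIs) but not in LPS + MCZ (41.7% against 49.5%). Their Alas2 counts, 2024 and 595, exceeded the 912 of the kept cells in LPS and fell short of the 731 in LPS + MCZ. Neutrophil markers with at least 20 UMIs in them stood at a median of 0.301 and 0.352 of the neutrophil level. The cause of the difference between the libraries was not tested.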

How the results depend on the processing

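Of 106 values of the comparisons under other settings, 61 stayed near the reported value, 43 moved and 2 reversed. The erythroid list median between the libraries, reported as 0.10, ran from -0.18 to 0.33 and was below 0 under 5 of its 12 alternatives. The ratio of the erythroid shares reversed to 0.616 with no cell filter and to 0.941 with at least 500 genes. With no cell filter the shares were 4.75% and 2.93% and the erythroid list median between the libraries -0.15. At least 500 genes gave shares of 0.50% and 0.471%, list medians over neutrophils of 1.25 and 0.79 and 37 genes over neutrophils. A globin share of 50% gave 0.737% and 0.950% of cells, and 36 genes higher and 42 lower between the libraries, with Hspa1a at 0.17. A share of 80%, an alternative chosen after seeing the data, gave 0.472% and 0.686% of cells and neutrophil RNA at 0.249 and 0.314. These levels use markers with at least 50 UMIs, while the 0.229 and 0.298 given above for the same cells use at least 20. The list medians over neutrophils were 7.17 and 6.54. Between the libraries, 6 genes were higher and 10 lower, with a list median of -0.18. A share of 10% gave 142 genes over neutrophils.

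Leaving out the 10% of cells with the most non-globin UMIs gave 52 genes higher, a list median between the libraries of 0.21 and Hspa1a at 0.49. Cells with S100a8 and S100a9 under 5% of non-globin UMIs gave neutrophil RNA at 0.389 in LPS, 160 genes over neutrophils and a list median between the libraries of 0.19. With all other cells as the reference, neutrophil RNA stood at 1.15 and 1.18 and 45 genes passed. CPM over all UMIs gave list medians of 1.24 and 0.97 over neutrophils and 38 genes. With 20 UMIs, 159 genes passed over neutrophils, 206 were higher and 296 lower between the libraries, and with 4 UMIs in each library 238, 233 and 234. Subtracting neutrophil RNA gave 290 higher, 359 lower and a list median of 0.33, and scaling per globin UMI, chosen after seeing the data, a list median of -0.14. The causes of these changes were not tested.

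Among named genes and shares of cells, 140 values stayed within their intervals, 155 moved and 2 reversed. The 2 were values of Hspa1a, given above, whose intervals included 0, and only genes past 2-fold were counted as reversed. Below 2-fold, Alas2 changed sign with no cell filter (-0.48) and at 80% globin (-0.22, -0.41 to -0.04), Bpgm with no cell filter (-0.41) and at least 500 genes (-0.47), and Fech in cells of low S100a8 and S100a9 (0.44), each with an interval that excluded 0. No paired analysis was possible because each group was 1 pooled library. Most genes of early stages had under 20 UMIs, too few to compare, and whether they are absent or below this depth cannot be told apart.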
